A study of Mus musculus with 73 samples.

Results

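The 5 genes described here, Ascl2, Cd81, Tssc4, R74862 and Tspan32, lie side by side on mouse chromosome 7 at the edge of the imprinted domain that holds the lncRNA gene Kcnq1ot1. They were taken by name from the 30546 genes of the deposited allele-specific table, and 4 of the 5 had enough reads to be tested. The study asked which chromatin regulators keep parental alleles unequal after implantation, by disrupting Dnmt1 (DNA methylation), the gene pair Ehmt1 and Ehmt2 together (G9a and Glp, histone H3 lysine 9 methylation), Rnf2 (PRC1) or Eed (PRC2) in hybrid mouse embryos. Epiblast, which forms the embryo proper, and extraembryonic ectoderm (ExE), which forms part of the placenta, were taken from the same embryos at E6.5, and RNA was sequenced in 72 libraries from 41 embryos.

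Wild-type embryos came from both directions of the cross. In BDF1xCAST embryos the mother was a BDF1 mouse (a hybrid laboratory strain) and the father a CAST mouse. There were 7 such embryos, each with both tissues. In CASTxBDF1 embryos, 4 in number and again with both tissues, the parents were exchanged. All knockout embryos were BDF1xCAST: Dnmt1 (3 epiblast and 3 ExE libraries), G9a-Glp (6 and 8), Rnf2 (6 and 5) and Eed (9 and 10). BDF1xCAST zygotes were made by intracytoplasmic sperm injection and grown in CD-1 foster mothers, whereas CASTxBDF1 embryos came from natural mating, so the direction of the cross and the way of fertilisation cannot be told apart. Knockouts were made by injecting Cas9 mRNA with several guide RNAs per gene into zygotes, so each embryo carries its own lesions. Embryo numbers are those of the embryo label. For Eed embryos 8, 9 and 10 the sample titles number epiblast and ExE differently, so that a pairing by title would be another one, while the labelled sex is the same in both tissues when paired by the embryo label. Each library is bulk tissue of few cells, libraries of 1 group and tissue come from separate embryos, and a bulk value cannot tell fewer cells of a type from less RNA per cell.

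Imprinted genes are read mainly from the copy of one parent. Kcnq1ot1 starts inside Kcnq1 at a differentially methylated region, is transcribed from the unmethylated paternal chromosome, and silences neighbouring genes in cis on that chromosome. Genes close to it are silenced in embryo and placenta alike, while the outer genes, to which Ascl2, Cd81 and Tssc4 belong, are imprinted in extraembryonic tissue, where Polycomb complexes and H3K9 methylation have been found on the paternal copy. Ascl2 encodes a basic helix-loop-helix transcription factor needed for the spongiotrophoblast of the placenta. Cd81 and Tspan32 encode tetraspanins, which are membrane proteins that organise other proteins at the cell surface. Tssc4 encodes a factor of spliceosome assembly. R74862 is an lncRNA gene of unknown function.

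In mm10 coordinates from the deposited table, Ascl2 (RefSeq gene 17173) was counted over chr7:142966822-143008033. RefSeq places its transcript at chr7:142966822-142969264 on the minus strand, so the deposited interval is longer and overlaps that of Tspan32 (27027, chr7:143004899-143019486) by 3135 bases. R74862 (97423, chr7:143021784-143053686, minus strand) and Cd81 (12520, chr7:143052750-143067930, plus strand) overlap head to head by 937 bases, and Tssc4 (56844) covers chr7:143068092-143071093. Since no strand setting is stated for the counting, reads in an overlap cannot be assigned to 1 gene, and the values of R74862 and Cd81 are uncertain as separate genes. Kcnq1ot1 (63830) covers chr7:143213111-143296547. The 250 bases before the start of 3 of these genes are given 5′ to 3′ on each gene's own strand, from RefSeq on GRCm38.p6, because CG dinucleotides are the substrate of Dnmt1 and CG-rich starts are typical Polycomb sites. CG dinucleotides are in capitals, and the windows are chr7:142969265-142969514 (minus strand) for Ascl2, chr7:143052500-143052749 (plus strand) for Cd81 and chr7:143296548-143296797 (minus strand) for Kcnq1ot1.
Ascl2: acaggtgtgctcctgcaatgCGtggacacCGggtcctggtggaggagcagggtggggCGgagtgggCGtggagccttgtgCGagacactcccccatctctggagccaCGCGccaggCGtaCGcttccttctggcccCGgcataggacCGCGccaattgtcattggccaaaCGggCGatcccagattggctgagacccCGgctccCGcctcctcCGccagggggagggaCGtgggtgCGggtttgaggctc
Cd81: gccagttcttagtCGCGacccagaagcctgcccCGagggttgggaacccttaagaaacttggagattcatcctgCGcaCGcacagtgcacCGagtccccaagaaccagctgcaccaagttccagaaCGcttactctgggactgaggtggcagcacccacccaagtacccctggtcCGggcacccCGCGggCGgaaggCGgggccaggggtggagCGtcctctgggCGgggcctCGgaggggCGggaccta
Kcnq1ot1: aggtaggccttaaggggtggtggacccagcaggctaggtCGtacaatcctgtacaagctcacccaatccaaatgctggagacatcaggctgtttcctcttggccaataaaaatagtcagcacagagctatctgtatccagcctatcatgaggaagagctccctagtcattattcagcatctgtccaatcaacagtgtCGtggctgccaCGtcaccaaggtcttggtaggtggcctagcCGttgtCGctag
The motif searched was CG, which reads the same on both strands. The Ascl2 window held 19 of them and the Cd81 window 16, against a median of 6 over 32851 RefSeq windows of the same length, of which 19.7% held at least 19 and 25.4% at least 16. The windows of the other members, not printed, held 17 (Tssc4), 2 (R74862) and 1 (Tspan32), and 23.5%, 81.2% and 92.1% of all windows held as many. The windows of the members thus differed widely in CG number, and those of R74862 and Tspan32 were CG-poor. The Tssc4 window (chr7:143069118-143069367) lies inside the gene's interval, and the Tspan32 window (chr7:143004796-143005045) reaches into that of Tspan32. Neither lies wholly before the start of the interval. The Kcnq1ot1 window held 5, and 55.6% of all windows held as many.

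The table used here holds reads over single-base differences between the strains. Levels are given as CPM, a gene's reads scaled to the library's total of such reads, and the maternal share is the percentage of a gene's reads that came from the mother's allele. Levels of different genes cannot be compared, because the number of strain differences per gene is not given in the sources used here. Library totals ranged from 1141414 to 17653087 reads, and the Rnf2 libraries were the deepest apart from 1 ExE library of 1847681 reads. Eed reads were below the wild-type range in all 19 Eed libraries and Dnmt1 reads in 5 of 6 Dnmt1 libraries, while Rnf2 reads in the 5 Rnf2 ExE libraries (21.9 to 62.7 CPM) all lay within the wild-type range (21.4 to 65.9 CPM). In Rnf2 epiblast 4 of 6 libraries lay below. In G9a-Glp ExE, Ehmt1 was below the wild-type range in 5 of 8 libraries and Ehmt2 in 6 of 8. In G9a-Glp epiblast Ehmt1 was below in only 2 of 6, with a highest value of 50.5 CPM against 39.8 CPM in wild type, and Ehmt2 in 0 of 6 (1.13 to 5.50 CPM against 0.396 to 6.27 CPM), so that RNA levels do not check the labels of that group. Lesions in coding exons need not lower RNA. Fgf5, Nanog and Otx2 marked the epiblast, and Elf5, Esrrb and Bmp4 the ExE. Other markers of the same lists did not separate the wild-type BDF1xCAST tissues: the means in epiblast and ExE were 77.8 and 191 CPM for the epiblast marker Utf1, 14.6 and 18.1 CPM for Pou3f1, and 99.7 and 115 CPM for the ExE marker Eomes, and Pou5f1 was low in every epiblast group (mean 0.63 to 9.19 CPM). Visceral endoderm markers summed to 2486 CPM in 1 CASTxBDF1 epiblast library, and a list of 8 maternal decidua markers summed to 3.22 to 10.5 CPM in wild-type BDF1xCAST ExE, where 7 of the 8 were at 0.

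In wild-type ExE, Ascl2, Cd81, R74862 and Tssc4 were read almost wholly from the maternal copy in both directions of the cross. For Ascl2 the maternal share in the 7 BDF1xCAST libraries had a lowest value of 97.6%, a median of 100% and a highest value of 100%, and in the 4 CASTxBDF1 libraries it was 99.4%, 97.9%, 100% and 100%. For Cd81 the BDF1xCAST values ran from 91.8% over a median of 98.4% to 100%, and the CASTxBDF1 values were 99.5%, 99.2%, 99.7% and 99.8%. The lncRNA R74862 had shares of 91.8% to 100% (median 97.5%) in BDF1xCAST and no paternal read among 692 reads in CASTxBDF1, which allows a paternal share of up to 0.434% by counting error alone, since reads of amplified cDNA are not independent molecules. Tssc4 was slightly less complete, with 89.1% to 100% (median 96%) in BDF1xCAST and 100%, 89.4%, 100% and 100% in CASTxBDF1. Exchanging the parents therefore moved the allele that was read from BDF1 to CAST for all 4 genes. The parental term of the fit, which separates parent from strain, was 7.55 ± 0.20 for Ascl2, 6.59 ± 0.20 for Cd81, 7.58 ± 0.31 for R74862 and 4.66 ± 0.29 for Tssc4 (log2 of maternal over paternal reads ± SE, edgeR quasi-likelihood test, largest Benjamini-Hochberg adjusted p = 3.16e-11). All 4 were called imprinted by the adjusted p together with a mean maternal share of at least 70% in both crosses, a rule that 0.508% of 8654 tested genes met. Here and below, the SE of an edgeR value is that log2 value divided by the square root of the test's F. Such an SE can fall short of the counting error where an allele has few reads, as the paternal allele of these genes has here.

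In wild-type epiblast Cd81, R74862 and Tssc4 were read from both copies, and Ascl2 had few reads. The maternal share of Cd81 was 67.6% ± 3.58 (SD, n = 7) in BDF1xCAST and 53.4% ± 1.81 (SD, n = 4) in CASTxBDF1, so that the 2 crosses did not overlap. R74862 stood at 58.9% ± 5.66 and 55.4% ± 4.74, and Tssc4 at 63.5% ± 10.2 and 42.6% ± 11.1, in the same order and with the same n. For Tssc4 the BDF1 copy was thus the larger in both crosses on average, and its parental term of 0.22 ± 0.20 (log2) did not pass (adjusted p = 0.943, edgeR). Cd81 (0.64 ± 0.07, adjusted p = 7.37e-07) and R74862 (0.43 ± 0.09, adjusted p = 0.0392) passed the parental term on the edgeR test, as did 0.354% of 8469 genes, but none of the 4 reached a mean share of 70% in both crosses, which 0.283% of genes did beside the adjusted p. Ascl2 had only 6 to 24 reads per BDF1xCAST epiblast library, too few for a firm share (36.4% to 83.3% in the 5 libraries with at least 10 reads). In CASTxBDF1 epiblast it had 6 to 72 reads, and the 3 libraries with at least 10 reads stood at 62.5%, 73.3% and 100% maternal. Its parental term was 1.25 ± 0.31 with an adjusted p of 0.112 by edgeR.

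**Figure D1:**
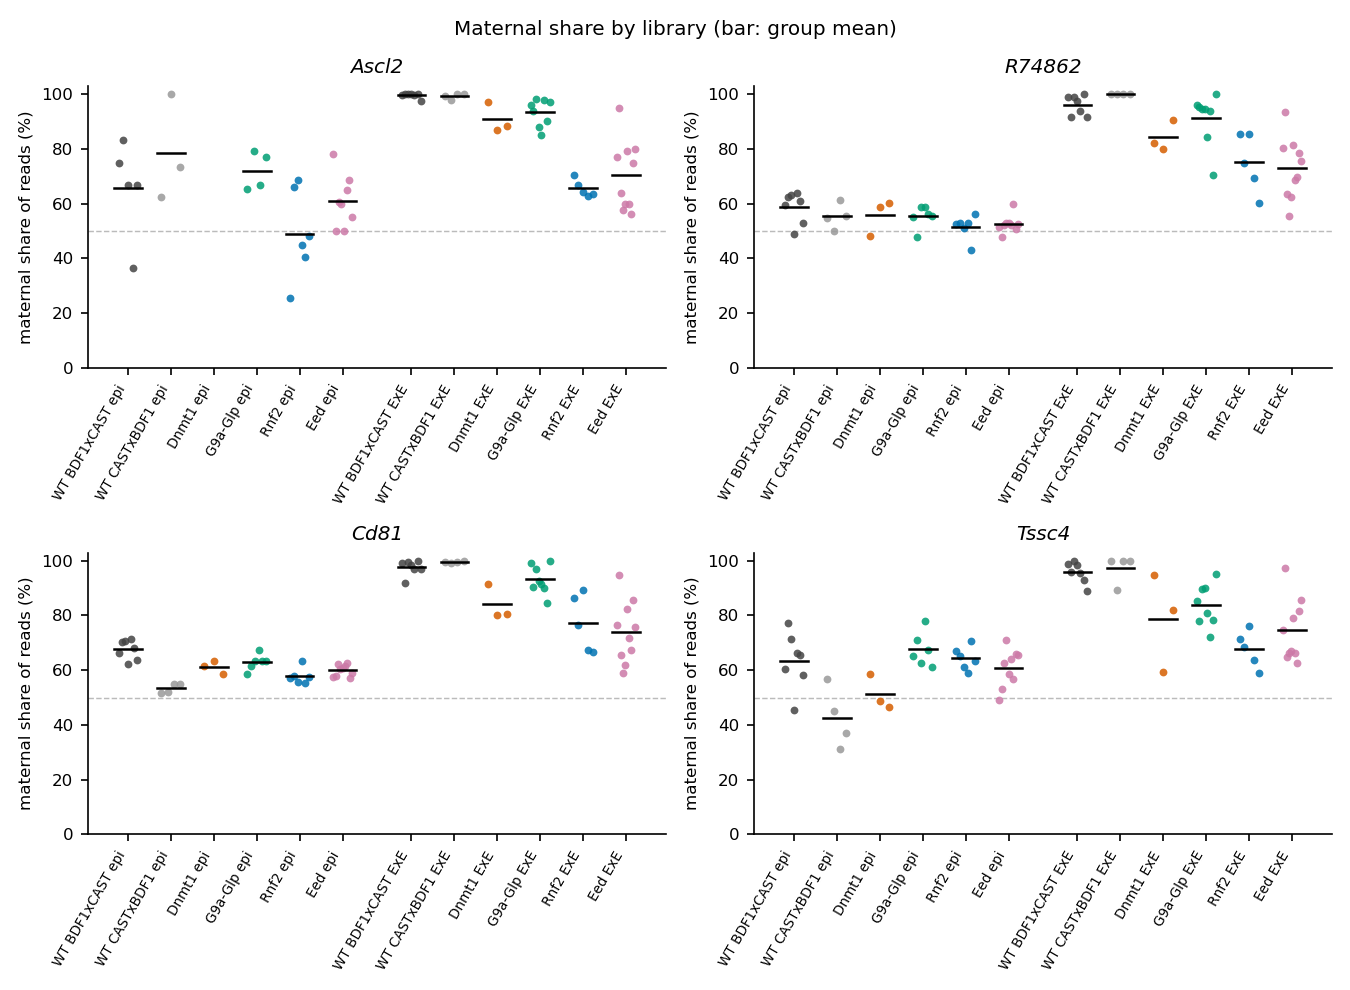
Maternal share in percent of allele reads (vertical axis) of Ascl2, Cd81, R74862 and Tssc4 in each library with at least 10 reads of the gene, by genotype, cross and tissue. Points are single libraries, bars are group means and the dashed line marks 50%. Wild-type ExE lies at or above 89.1% for all 4 genes. The Rnf2 and Eed ExE means lie lower, while single libraries reach above that value, up to 97.2% for Tssc4 in Eed.

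Between the tissues of wild-type embryos the allelic ratio shifted toward the mother in ExE for all 4 genes, by 5.96 ± 0.56 for Ascl2, 5.58 ± 0.31 for Cd81, 5.61 ± 0.38 for R74862 and 4.29 ± 0.41 for Tssc4 on the log2 scale. The largest of the adjusted p-values was 6.54e-09 (edgeR), and 0.132% of 7568 tested genes were called in this direction. Levels did not move together. Ascl2 read 15.0 to 220 CPM in BDF1xCAST ExE (median 68.0) and 2.77 to 7.93 CPM in the matching epiblasts, with no overlap, and was higher in ExE by 3.72 ± 0.41 (log2, adjusted p = 9.73e-09, edgeR). Cd81 ran the other way, at 46.4 to 89.4 CPM in BDF1xCAST ExE and 114 to 246 CPM in epiblast, lower in ExE by -1.17 ± 0.17 (adjusted p = 6.72e-07), and R74862 was lower by -1.48 ± 0.20 (adjusted p = 2.80e-07). Tssc4 read 31.9 ± 4.49 CPM in ExE and 28.1 ± 18.9 CPM in epiblast (SD, n = 7 each), a difference of 0.36 ± 0.18 that did not pass (edgeR adjusted p = 0.0742). With the embryo as a replicate block, since both tissues came from the same embryos, it was 0.40 and passed (edgeR adjusted p = 0.0209). Of all 10424 genes, 67.8% differed in level between the tissues.

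Without Rnf2 or Eed, the paternal copy of Ascl2 was read in ExE. The maternal share in the 5 Rnf2 libraries was 70.4%, 67.0%, 64.2%, 62.9% and 63.7%, so every library lay below the lowest wild-type value of 97.6% and the spread between embryos was small (65.6% ± 3.09, SD, n = 5). In the 10 Eed libraries the share had a lowest value of 56.3%, a median of 69.4% and a highest value of 94.8%, again all below the wild-type range, with a wider spread (70.4% ± 12.7, SD). The allelic ratio changed by -7.83 ± 0.31 in Rnf2 ExE (adjusted p = 1.26e-14) and by -7.53 ± 0.73 in Eed ExE (adjusted p = 1.18e-08) on the log2 scale by edgeR. Both comparisons used the same 7 wild-type libraries, which held only 4 paternal Ascl2 reads, so that these SEs can be too small. All 4 tested members shifted toward the father in each knockout, where 0.622% of 9002 genes (Rnf2) and 1.48% of 8959 genes (Eed) did so.

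Cd81 shifted in both Polycomb knockouts. Its share in the 5 Rnf2 ExE libraries was 86.3%, 76.6%, 89.2%, 67.4% and 66.7%, all below the wild-type minimum of 91.8%, and in Eed it ran from 58.8% over a median of 73.8% to 94.6%, with 9 of 10 libraries below the wild-type range. The changes in allelic ratio were -3.76 ± 0.50 (Rnf2, adjusted p = 2.17e-04) and -3.95 ± 0.55 (Eed, adjusted p = 2.06e-05) by edgeR. The overlapping R74862 followed closely, with shares of 60.1% to 85.5% in Rnf2 and 55.4% to 93.4% in Eed and changes of -3.45 ± 0.53 (adjusted p = 6.38e-04) and -3.62 ± 0.53 (adjusted p = 2.89e-05). Tssc4 read 71.2%, 68.3%, 76.1%, 63.7% and 58.9% maternal in Rnf2 and 62.6% to 97.2% (median 70.7%) in Eed. Its changes of -3.52 ± 0.37 (adjusted p = 7.45e-06) and -3.02 ± 0.50 (adjusted p = 2.08e-04) also passed edgeR's test, with 5 of 5 Rnf2 and 9 of 10 Eed libraries below the wild-type range. With limma on log ratios the Rnf2 calls of Cd81 (adjusted p = 0.0937), R74862 (0.123) and Tssc4 (0.0728) were lost and that of Ascl2 was kept, while all 4 Eed calls held under each of 26 alternatives. Leaving out the Rnf2 ExE libraries of embryos 2, 5 and 6, the 3 with the most Rnf2 reads (29.5 to 62.7 CPM), gave changes of -7.83 (Ascl2), -4.01 (Cd81), -3.81 (R74862) and -3.65 (Tssc4).

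The shift came with more reads of the paternal copy. Pooled over libraries, wild-type BDF1xCAST ExE held 4 paternal Ascl2 reads among 20276105 reads, or 0.197 CPM, against 111 CPM in Rnf2 and 83.3 CPM in Eed. These are 563 times (95% interval 220 to 2066) and 422 times (165 to 1550) the wild-type level, with exact intervals that cover counting error only. Without wild-type embryo 1, which held 2 of the 4 reads, they were 956 times (264 to 7895) and 717 times (198 to 5925). Paternal Cd81 was 17.0 times (12.1 to 24.6) the wild-type level in Rnf2 and 44.6 times (31.8 to 64.5) in Eed. Of the 34 wild-type reads behind these ratios 20 came from embryo 2, and without it they were 35.5 times (21.1 to 65.2) and 93.4 times (55.5 to 171). For R74862 the ratios were 13.7 times (8.43 to 23.7) and 34.2 times (21.3 to 59.1). For Tssc4 the order of the 2 knockouts was the reverse, with 16.7 times (11.4 to 25.5) in Rnf2 and 11.8 times (8.00 to 18.1) in Eed, but the intervals overlap. By edgeR, paternal reads were higher for 4 of 4 tested members in both knockouts, with log2 differences of 3.67 to 8.75 in Rnf2 and 3.31 to 8.23 in Eed, where 11.3% and 20.7% of all tested genes were higher on the paternal allele.

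Maternal reads moved less. In Rnf2 ExE none of the 4 passed on the maternal allele by edgeR (differences of 0.97 for Ascl2, 0.14 for Cd81, 0.17 for R74862 and 0.39 for Tssc4, lowest adjusted p = 0.108), nor by DESeq2, while Ascl2 and Tssc4 had an unadjusted p under 0.05, where 20.1% of 9506 genes changed in either direction. In Eed ExE the maternal reads of Cd81 (1.24 ± 0.20, adjusted p = 5.48e-05) and R74862 (1.2 ± 0.26, adjusted p = 9.25e-04) were higher, and those of Ascl2 (0.69 ± 0.31, adjusted p = 0.0835) and Tssc4 (0.32 ± 0.16, adjusted p = 0.124) did not pass, beside 20.1% of genes that were higher on the maternal allele. The paternal copy did not reach the maternal one in any Rnf2 or Eed ExE library for any of the 4 genes, since the lowest share was 55.4% (R74862 in 1 Eed library).

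**Figure D2:**
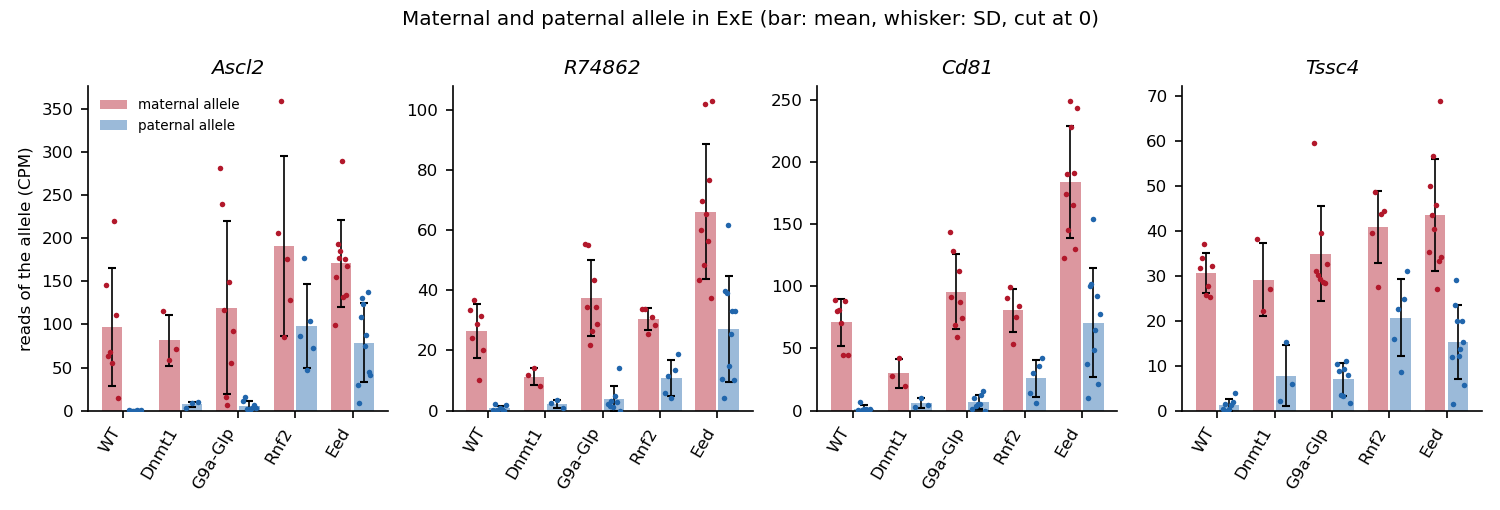
Maternal and paternal reads of Ascl2, Cd81, R74862 and Tssc4 in ExE, in CPM of each allele (vertical axis), by genotype for BDF1xCAST embryos. Bars are means, whiskers the SD (ending at 0) and points single libraries. Paternal Ascl2 lies at 0 to 0.655 in wild type, at 47.6 to 177 in Rnf2 and at 8.50 to 137 in Eed.

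Summed over both copies, all 4 genes were higher in Eed ExE. Cd81 read 46.4, 81.1 and 89.4 CPM (lowest, median, highest) in wild-type ExE and 151, 262 and 403 CPM in Eed ExE, without overlap, and was higher by 1.67 ± 0.22 (log2, adjusted p = 3.42e-06, edgeR). R74862 was higher by 1.65 ± 0.27 (adjusted p = 5.60e-05), Ascl2 by 1.23 ± 0.32 (0.00402) and Tssc4 by 0.70 ± 0.15 (0.00111). These 4 calls stand beside 41.8% of 10058 genes that changed level in either direction and 23.3% that were higher, so that a higher level was common in this tissue. Ascl2 ranged from 130 to 365 CPM in Eed against 15.0 to 220 CPM in wild type, so that 5 of 10 Eed libraries lay above the wild-type range and 5 within it.

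In Rnf2 ExE, 2 of 4 members were higher, beside 13.7% of 9506 genes. Ascl2 read 293, 535, 133, 281 and 201 CPM, and its rise of 1.56 ± 0.41 (log2, adjusted p = 0.0120, edgeR) was of the same size with the embryo number as a block (1.56) but no longer passed (adjusted p = 0.0613). Without Rnf2 embryo 4 it was 1.21 and did not pass either (adjusted p = 0.0504). Tssc4 read 55.6, 71.3, 36.3, 68.6 and 75.4 CPM against 26.1 to 37.1 CPM in wild type, with 4 of 5 libraries above that range, and rose by 0.91 ± 0.18 (adjusted p = 0.00177). Cd81 (0.51 ± 0.20, adjusted p = 0.0703) and R74862 (0.57 ± 0.22, adjusted p = 0.0664) did not pass. Compared directly, Eed ExE had more Cd81 (1.17 ± 0.24, adjusted p = 0.00281) and R74862 (1.09 ± 0.27, adjusted p = 0.00949) than Rnf2 ExE by edgeR, beside 11.9% of 10735 genes, and both calls were lost without the Rnf2 libraries of embryos 2, 5 and 6. None of the 4 differed in allelic ratio between Eed and Rnf2 ExE by edgeR (-0.20 to 0.49 on the log2 scale, lowest adjusted p = 0.584, lowest unadjusted p = 0.0878), where 0.457% of 10293 genes did.

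Marker levels moved with the Polycomb knockouts. The decidua list summed to 29.5 to 101 CPM in Eed ExE against 3.22 to 10.5 CPM in wild type, with a mean of 48.8 CPM from Wnt4 alone, while the decidual prolactin genes Prl8a2 and Prl3c1 stood near 0 (0.0252 CPM each). In Rnf2 ExE the decidua list summed to 9.74 to 23.9 CPM. The 9 visceral endoderm markers summed to 38.3 to 78.4 CPM in Eed ExE and to 22.9 to 49.0 CPM in Rnf2 ExE, against 12.2 to 28.6 CPM in wild-type ExE, so that Eed and wild type did not overlap. Most of the Eed sum came from Amn (mean 31.5 against 11.2 CPM in wild type) and Rbp4 (15.9 against 5.47 CPM). The rest of this list stood at 3.64 CPM (Afp) or below in both, and Ttr was not higher in Eed (0.236 against 0.290 CPM). The 6 ExE markers summed to 299 to 611 CPM in Eed ExE, to 487 to 1062 CPM in Rnf2 ExE and to 561 to 1030 CPM in wild-type ExE. A list for ectoplacental cone and differentiated trophoblast, with 5 of 7 genes counted, summed to 2.52 to 28.8 CPM in Eed ExE. It summed to 0.682 to 8.35 CPM in Rnf2, 2.96 to 18.6 CPM in G9a-Glp and 0.687 to 6.45 CPM in wild-type ExE. Nearly all of it was Flt1 (mean 11.6 CPM in Eed against 4.03 CPM in wild type). Paternal Ascl2 reads, at 8.50 to 137 CPM, lay above the highest wild-type value of 0.655 CPM in every Eed ExE library. The part of the marker shift in the levels of the members was not tested.

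**Figure D3:**
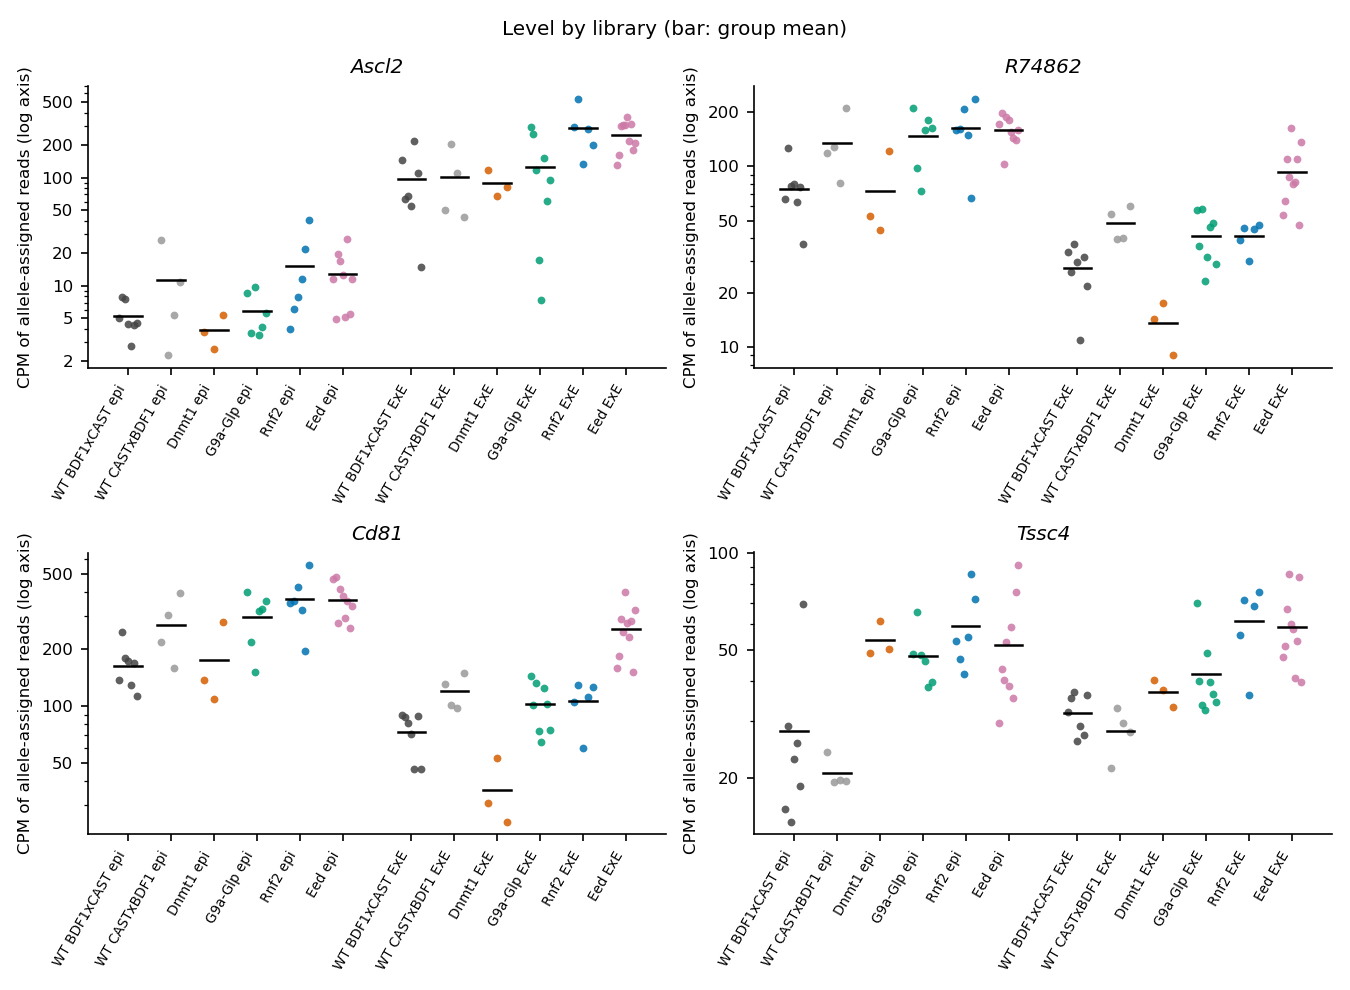
Level of Ascl2, Cd81, R74862 and Tssc4 in CPM in each library (vertical axis, log scale), by genotype, cross and tissue. Points are single libraries and bars are group means. All 10 Eed ExE libraries lie above the wild-type BDF1xCAST range for Cd81, R74862 and Tssc4, and 5 of 10 do for Ascl2.

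Across the 10 Eed embryos the ExE shares of Ascl2, Cd81 and Tssc4 varied together. Embryo 2 kept a nearly wild-type share in ExE, at 94.8% for Ascl2 (95% Wilson interval 91.9 to 96.7, 346 reads), 94.6% for Cd81, 93.4% for R74862 and 97.2% for Tssc4, although its Eed reads lay below the wild-type range. Embryo 8 had the lowest shares of Ascl2 (56.3%) and Tssc4 (62.6%), and embryo 4 those of Cd81 (58.8%) and R74862 (55.4%). Across the 10 embryos the shares of Ascl2 and Cd81 had a Pearson r of 0.897 (permutation p = 0.00148, adjusted over 5 relations 0.00290) and a Spearman rho of 0.794 (permutation p = 0.00938, adjusted 0.0183). Ascl2 and Tssc4 gave r = 0.959 and rho = 0.879, and Cd81 and Tssc4 r = 0.883 and rho = 0.782, with adjusted permutation p-values of 0.00180 and 0.00290 for r and 0.00570 and 0.0183 for rho. Without the 2 embryos farthest from the median, r was 0.837, 0.906 and 0.80. Each point takes both shares from the same library. The share of Ascl2 had no such relation to Eed reads (r = -0.475, permutation p = 0.137, rho = -0.333, p = 0.351, r without the 2 farthest -0.277) or to its own level (r = -0.537, p = 0.109, rho = -0.539, p = 0.114, r without the 2 farthest -0.339).

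**Figure D4:**
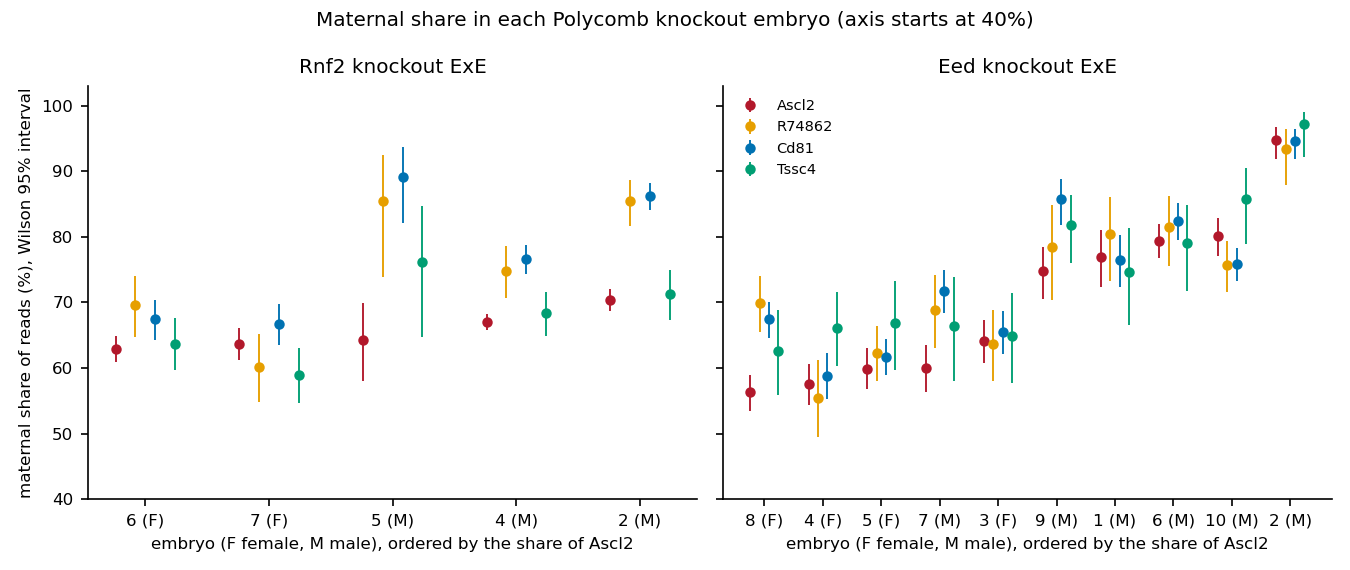
Maternal share in percent (vertical axis, starting at 40%) of Ascl2, Cd81, R74862 and Tssc4 in ExE of each Rnf2 embryo (left) and Eed embryo (right). Embryos (horizontal axis) are ordered by the share of Ascl2 and marked F (female) or M (male). Dots are libraries and lines are 95% Wilson intervals, which cover counting error only. Eed embryo 2 stands at 93.4% to 97.2% for all 4 genes.

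In G9a-Glp ExE, Ascl2 and Tssc4 shifted toward the father, and Cd81 and R74862 did not pass. Ascl2 stood at 85%, 95% and 98.4% maternal (lowest, median, highest of 8 ExE libraries), with 6 of 8 below the wild-type range, and the 2 lowest shares came from libraries with only 20 and 42 Ascl2 reads. The change was -4.24 ± 0.65 (log2, adjusted p = 7.10e-05, edgeR) and passed under all 25 alternatives. Tssc4 stood at 72.1%, 83.1% and 95.2%, and changed by -2.09 ± 0.47 (adjusted p = 0.0184), a call kept under 21 of 25 alternatives. Cd81 (84.7% to 100%, -1.52 ± 0.65, adjusted p = 0.372) and R74862 (70.6% to 100%, -1.69 ± 0.71, adjusted p = 0.350) did not pass, so that 2 of 4 members were called beside 0.584% of 8731 genes. Paternal reads of Ascl2 were 25.9 times (95% interval 9.83 to 96.8) the wild-type level over the pooled libraries (44.0 times without wild-type embryo 1), and those of Tssc4 were 5.00 times (3.30 to 7.85). By edgeR these 2 passed on the paternal allele (4.38 ± 0.77, adjusted p = 3.26e-04, and 2.25 ± 0.51, adjusted p = 0.00548), beside 6.83% of 9228 genes, and R74862 missed the threshold (2.15 ± 0.72, adjusted p = 0.0502). None of the 4 passed in level or in maternal reads by edgeR or DESeq2 (lowest adjusted p = 0.119 and 0.221), where 16.3% and 12.5% of genes did. The unadjusted p of Cd81 and of R74862 in level was under 0.05. Visceral endoderm markers summed to 20.3 to 139 CPM in G9a-Glp ExE (mean 64.9) against 12.2 to 28.6 CPM in wild type (mean 20.9). Most of the G9a-Glp sum was the yolk sac gene Afp, at a mean of 45.5 against 2.14 CPM. Amn stood at 14.7 against 11.2 CPM and Rbp4 lower, at 0.999 against 5.47 CPM. The rest of the list stood at 1.27 CPM (Trf) or below in both groups. The part of the marker sum in the members' values was not tested.

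In Dnmt1 ExE the 3 libraries varied. The maternal share of Ascl2 was 97.0%, 87.0% and 88.4%, that of Cd81 91.7%, 80.2% and 80.7%, that of R74862 82.1%, 80.0% and 90.5% and that of Tssc4 94.9%, 59.4% and 81.8%. The first library of each series is embryo 1, whose Dnmt1 reads lay within the wild-type range. Ascl2 changed by -5.19 ± 0.70 (adjusted p = 4.08e-05) and Cd81 by -3.02 ± 0.69 (adjusted p = 0.0327) by edgeR, 2 of 4 members beside 0.506% of 7708 genes. The Ascl2 call was lost with limma and with all BDF1xCAST groups in 1 fit, and the Cd81 call under 10 of 20 alternatives. Tssc4 (-2.48 ± 0.67, adjusted p = 0.0940) did not pass, but passed without embryo 1 (-3.14, adjusted p = 0.0206, edgeR). With all 3 libraries it passed under the replicate block (-4.13, adjusted p = 0.00345, edgeR). Across genotypes that block groups different embryos by their number and is not a pairing. R74862, with 21 to 30 reads per library, did not pass (-2.58 ± 0.84, adjusted p = 0.212).

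In level, Cd81 and R74862 were lower in Dnmt1 ExE than in wild type. Cd81 read 30.6, 53.2 and 24.5 CPM, with 2 of 3 libraries below the wild-type range of 46.4 to 89.4 CPM, and fell by 1.28 ± 0.28 on the log2 scale (adjusted p = 0.00645, edgeR). R74862 fell by 1.27 ± 0.36 (adjusted p = 0.0224), and these 2 of 4 calls stand beside 9.93% of 9749 genes that were lower. The Cd81 call was lost without embryo 3, and the R74862 call without embryo 1 or embryo 3. The maternal reads of both were lower (-1.50 ± 0.28, adjusted p = 0.00359, and -1.49 ± 0.37, adjusted p = 0.0141), beside 7.82% of genes. Paternal reads were higher for Ascl2 (4.67 ± 0.65, adjusted p = 1.16e-04) and Tssc4 (2.19 ± 0.67, adjusted p = 0.0362) by edgeR, beside 6.65% of genes, at 37.2 times (13.5 to 143, or 63.2 times without wild-type embryo 1) and 5.51 times (3.34 to 9.25) the wild-type level over the pooled libraries. Ascl2 (-0.34 ± 0.50) and Tssc4 (-0.04 ± 0.21) did not pass in level.

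In the epiblast of the knockouts Cd81 was the 1 member whose allelic ratio passed, in Rnf2 and in Eed. It stood at 55.3%, 57.2% and 63.2% maternal (lowest, median, highest) in the 6 Rnf2 epiblasts and at 57.2%, 60.5% and 62.8% in the 9 Eed epiblasts, against 62.3%, 68.2% and 71.5% in wild type. Its changes of -0.63 ± 0.12 (adjusted p = 0.00879) and -0.50 ± 0.10 (adjusted p = 0.00396) passed edgeR's test, as 1 of 4 members in each, beside 0.479% of 9190 genes in Rnf2 and 0.830% of 9040 genes in Eed. Both calls were lost with limma, and the Eed call also with the replicate block. Other shares differed more without passing. Ascl2 stood at 49.0% ± 16.2 in Rnf2 epiblast (SD, n = 6) against 65.6% ± 17.7 in wild type (n = 5 libraries with at least 10 reads), a change of -1.35 ± 0.59 (log2, adjusted p = 0.516, unadjusted p = 0.0315, edgeR). Tssc4 stood at 51.3% ± 6.44 in Dnmt1 epiblast (n = 3) against 63.5% ± 10.2 (n = 7), a change of -0.69 ± 0.36 (adjusted p = 0.593, edgeR). No member passed in allelic ratio in G9a-Glp epiblast (4 tested, lowest adjusted p = 0.199) or in Dnmt1 epiblast (3 tested, lowest adjusted p = 0.366), where 2.02% and 0.991% of genes did. The unadjusted p of Cd81 was under 0.05 in both.

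The levels in knockout epiblast were higher more often than the ratios shifted. Cd81 read 259 to 483 CPM in Eed epiblast and 196 to 555 CPM in Rnf2 epiblast, against 114 to 246 CPM in wild type, and rose by 0.98 ± 0.17 (adjusted p = 2.18e-04) and 1.14 ± 0.23 (adjusted p = 0.00136) by edgeR. In Eed epiblast all 4 members rose (0.82 to 1.11), beside 20.2% of 9820 genes, and in Rnf2 epiblast Cd81, R74862 (1.07 ± 0.28) and Tssc4 (1.14 ± 0.27) did, beside 18.8% of 10134 genes. With the replicate block the Rnf2 call of R74862 and the Eed call of Tssc4 were lost, and the Eed call of Ascl2 was lost without Eed embryo 8 or wild-type embryo 6 or 7. In G9a-Glp epiblast the same 3 genes were higher by 0.76 to 0.87, beside 21% of 9562 genes, and all 3 calls were lost without embryo 1 of that group. No member changed level in Dnmt1 epiblast by edgeR (lowest adjusted p = 0.154, where the unadjusted p of Tssc4 was 0.0417), while 15.2% of 10248 genes did. On single alleles, 4 of 4 members had more paternal reads in Rnf2 and in Eed epiblast (beside 14.8% and 15.7% of genes) and 3 of 4 more maternal reads (beside 14.9% and 16%), although the paternal call of Ascl2 in Rnf2 held under only 7 of 15 alternatives. In G9a-Glp epiblast, 2 had more paternal and 3 more maternal reads, each beside 16.7% of genes, and in Dnmt1 epiblast none passed on either allele, beside 8.94% and 10.3% of genes.

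The difference between tissues was tested by an interaction term, the change in ExE minus the change in epiblast. The fit had no term for the embryo, so the pairing of tissues was not used, and some knockout embryos had 1 tissue only. It passed for all 4 members in Rnf2 (-6.50 ± 0.96 for Ascl2, -3.14 ± 0.51 for Cd81, -3.03 ± 0.58 for R74862 and -3.58 ± 0.50 for Tssc4, largest adjusted p = 0.00446, edgeR), beside 0.137% of 8023 genes in this direction. In Eed it passed for all 4 as well (-6.93 ± 1.58, -3.46 ± 0.56, -3.22 ± 0.55 and -2.95 ± 0.60 in the same order, largest adjusted p = 0.0128), beside 0.451% of 7978 genes. With limma the Rnf2 terms of Cd81 and R74862 and the Eed term of Tssc4 were lost. In G9a-Glp it passed for Ascl2 (-4.23 ± 1.00, adjusted p = 0.0325) and Tssc4 (-2.34 ± 0.57, adjusted p = 0.0489), beside 0.117% of 7709 genes, but held under only 19 of 33 and 8 of 35 alternatives. In Dnmt1, where Ascl2 had too few epiblast reads, none of 3 members passed by edgeR (lowest adjusted p = 0.261, unadjusted p under 0.05 for all 3), beside 0.0156% of 6405 genes.

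Kcnq1ot1 was itself read from the paternal copy in wild-type ExE (1.26% ± 3.33 maternal, SD, n = 7). In Dnmt1 ExE its maternal share was 53.3%, 63.6% and 70.3%, and it changed by 6.40 ± 0.64 (log2, adjusted p = 1.96e-07, edgeR) as its maternal reads rose by 6.97 ± 0.67 (adjusted p = 5.23e-06). In Rnf2 and Eed ExE the share varied between embryos, from 0% to 40.5% and from 0% to 53.3%, and the ratio did not pass (adjusted p = 0.2 and 0.0966). Its maternal reads were higher by 3.8 ± 1.11 (adjusted p = 0.0213) and 4.22 ± 1.28 (adjusted p = 0.0123), while paternal reads, at 0.27 ± 0.29 and 0.59 ± 0.41, did not pass. The maternal share of Kcnq1ot1 lay above the wild-type range in 5 of the 10 Eed ExE libraries. In Eed embryos 3 and 2, picked after their values were seen, it had no maternal read, and Ascl2 was 64.1% and 94.8% maternal. The relation of the Kcnq1ot1 share to that of Ascl2 over the 10 embryos was not tested.

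A list of 18 genes of the domain and its neighbours, Kcnq1ot1 among them, gives the surroundings. In Eed ExE 11 of the 18 could be tested for allelic ratio and 5 shifted toward the father. These were Cdkn1c (-4.31), H19 (-3.98), Phlda2 (-3.75), Slc22a18 (-3.04) and Tnfrsf22 (-1.66, all log2). On the log2 scale the first 4 shifted about as far as Cd81, R74862 and Tssc4. In maternal share Cdkn1c moved less, from 99.5% in wild type to 93.0% in Eed (-6.54 points). Cd81 moved by -23.5 points, R74862 by -23.2 and Tssc4 by -21.3. The median log2 change was -0.26 over the list, -3.79 for the members and -0.01 for all genes. The list also holds genes read from both copies, such as Nap1l4 and Cars, and the paternally read Kcnq1ot1 and Igf2. Its median therefore does not describe its maternally read genes. In Rnf2 ExE 3 of 11 shifted toward the father (Slc22a18 by -3.47, Phlda2 by -3.86 and H19 by -4.35), with medians of -0.18 for the list and -3.64 for the members. In G9a-Glp ExE the same 3 shifted toward the father, and in Dnmt1 ExE Phlda2 and H19 did, of 9 tested. Phlda2, a maternally expressed growth regulator of the placenta, went from 97.7% ± 2.22 maternal in wild type to 73.4% ± 6.21 in Rnf2 and 75.4% ± 6.98 in Eed (SD, n = 7, 5 and 10). Slc22a18, which encodes a membrane transporter, went from 97.0% ± 3.67 to 72.4% ± 10.1 and 80.1% ± 9.96 (SD, n = 6, 5 and 10). H19, an imprinted lncRNA gene of the neighbouring Igf2 domain, went from 98.9% ± 2.04 to 80.8% ± 8.13 in Rnf2, 83.3% ± 11.0 in Eed and 54.8% ± 0.778 in Dnmt1. Tnfrsf22, which encodes a decoy receptor, went from 92.7% ± 4.54 to 79.5% ± 8.04 in Eed. In wild-type CASTxBDF1 ExE it was only 36.9% ± 11.7 maternal (SD, n = 4), so that its BDF1 copy was the larger in both crosses, whereas Phlda2, Slc22a18 and H19 were 99.5%, 100% and 99.8% maternal there. By the midpoints of the deposited intervals the members lie at -309 kb (Ascl2) to -227 kb (Tssc4) from the start of Kcnq1ot1, and Phlda2 lies at 206 kb, on its other side.

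**Figure D5:**
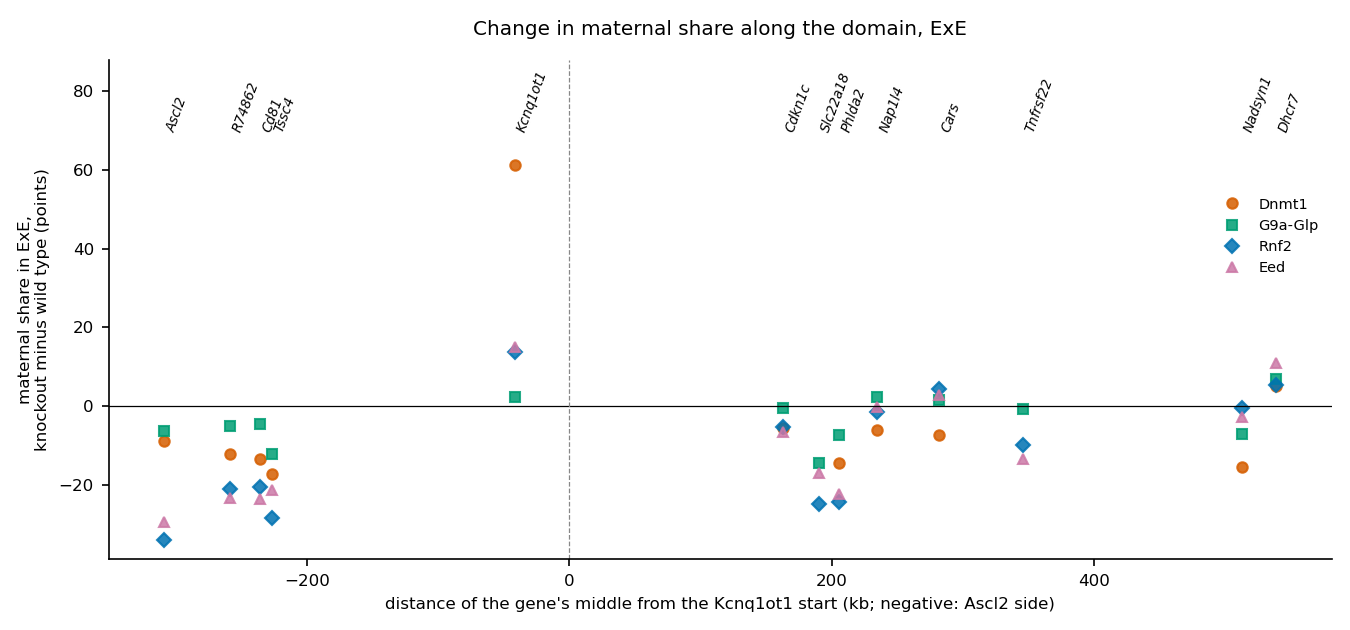
Change in mean maternal share in ExE, knockout minus wild type in percentage points (vertical axis), of genes in and around the domain by their distance in kb from the start of Kcnq1ot1 (horizontal axis), for the 4 knockouts. Points are differences of group means. In Rnf2, Ascl2 has the largest drop of the genes plotted, at -33.9 points.

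The genes most like the members were named by correlation across libraries, which share depth and tissue quality, as a description without a test. By level over 37 ExE libraries and 8972 genes, Ascl2 was most like Vgll1 (r = 0.925), Elf3 (0.924) and Prss8 (0.903), Cd81 most like Tmed3 (0.876), Prr13 (0.830) and Abcg1 (0.828), and Tssc4 most like Lhpp (0.836), Cdh23 (0.832) and Atp5g3 (0.816). By maternal share over 33 BDF1xCAST ExE libraries and 5329 genes, Phlda2 came first for all 3, with r = 0.853 for Ascl2, 0.881 for Cd81 and 0.818 for Tssc4. The members correlated with each other at 0.888 (Ascl2 and Cd81), 0.826 (Ascl2 and Tssc4) and 0.844 (Cd81 and Tssc4), and Cd81 with the overlapping R74862 at 0.941.

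Tspan32 was hardly detected. It had 0 to 3 reads in wild-type BDF1xCAST ExE and at most 17 reads in any library (Eed ExE, mean 1.94 ± 1.80 CPM, SD, n = 10), too few for an allelic test in any comparison. Of the 57 Tspan32 reads over all Eed ExE libraries 3 were paternal.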

How the data were processed

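RNA from single tissues of single embryos was amplified with SMART-Seq v4 and sequenced, per the labels' protocols. The submitters' processing notes name STAR 2.5.0, HTSeq and the build mm10, with no roles given. The deposited table gives, for each gene and library, a count of reads over strain differences, an allelic ratio and a score. Per the file headers and values, the authors' ratio is the CAST share minus 0.5, rounded to 2 decimals, and the deposited score is a signed -log10 of a binomial p-value. Allele counts were recovered as the whole numbers that fit the read count, the ratio and the score. Of 712130 scored values, 712029 (99.986%) matched the score within 0.002. A further 3519 values stood at the cap of the score and held 7.73% of all reads, and values under 10 reads rest on the ratio alone.

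Allelic ratios were tested with edgeR 4.0.16 (R 4.3.3) as the interaction of allele and group with the library as a block, over genes for which each group had 3 or more libraries holding 10 or more of the gene's reads. The quasi-likelihood test of edgeR was also used for levels and single alleles, after filterByExpr and TMM scaling. A call needed a Benjamini-Hochberg adjusted p under 0.05, and for parent of origin also a mean share of at least 70% or at most 30% in both crosses. Replicates are separate embryos, and no 2 of the 209 pairs of libraries within groups were duplicates. Alternatives were limma 3.58.1 (pseudocount 0.5), DESeq2 1.42.0, RLE scaling, other read minimums, no filter on low counts, 1 fit over all BDF1xCAST groups, sex, the replicate block, leaving out each library, and leaving out 7 libraries. These (Dnmt1 ExE embryo 1, G9a-Glp epiblast embryos 2 and 7 and ExE embryo 8, and Rnf2 ExE embryos 2, 5 and 6) were listed from an earlier analysis of their targeted genes and not by a cutoff, and other libraries also had a targeted gene within the wild-type range. The tissues are paired by embryo, per the labels, and 9 of 11 pairs had a correlation of deviations over 0.1 (0.03 to 0.54). Correlations over embryos used 100000 permutations (scipy 1.17.1). The fits were tested on simulated data with changes planted only in well-read genes read from both copies. Genes read almost wholly from the maternal copy, as the members are in wild-type ExE, were thus not covered.

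The members and lists were chosen with earlier results of these data known. Named genes are the 5 members, Kcnq1ot1, the targeted genes, at most 4 called genes of the domain list with the largest change in share, and the 3 genes most like each of Ascl2, Cd81 and Tssc4 (mean of at least 5 CPM, or at least 20 reads in every library for shares). Upstream sequences are from RefSeq, GRCm38.p6.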

Additional observations from a re-analysis of the deposited data

Results flagged for a closer look

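In 79 groups of 4 to 10 libraries, values far from the rest of their group were searched for. Chance would give about 1 in 20 groups, but this rate does not apply to shares near their upper limit. Ascl2 in wild-type BDF1xCAST ExE embryo 8 held 1 paternal read among 42. For Tssc4 in CASTxBDF1 ExE, all libraries other than embryo 2 held no paternal read, so any share below theirs stands apart. The number found was therefore not compared with chance, and 10 values stood far from the rest of their group. For maternal share these were Ascl2 in wild-type BDF1xCAST ExE embryo 8 (97.6%), Cd81 in wild-type BDF1xCAST ExE embryo 2 (91.8%) and Rnf2 epiblast embryo 5 (63.2%), Tssc4 in wild-type CASTxBDF1 ExE embryo 2 (89.4%), and R74862 in G9a-Glp epiblast embryo 2 (47.8%) and Eed epiblast embryo 8 (59.95%). For level they were Tssc4 in wild-type epiblast embryos BDF1xCAST 8 (69.4 CPM) and CASTxBDF1 1 (24.1 CPM) and in G9a-Glp epiblast embryo 2 (65.4 CPM) and ExE embryo 1 (69.8 CPM).

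The change in allelic ratio differed between ExE and epiblast by the interaction term (log2, edgeR, without a term for the embryo). In Rnf2 it was -6.50 for Ascl2, -3.14 for Cd81, -3.03 for R74862 and -3.58 for Tssc4. In Eed it was -6.93, -3.46, -3.22 and -2.95 in the same order. In G9a-Glp it was -4.23 for Ascl2 and -2.34 for Tssc4.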

How the results depend on the processing

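Of 4044 log2 values recomputed under alternatives, 3802 kept their call or lack of one, 185 lost the call and 57 gained it. Where either fit gave a call, 0 values reversed direction. Values without a call in either fit count as kept even where their sign changed. Of the counts of called members 743 of 829 stayed within 1.5 times, and of the counts over all genes 740 of 825. With limma on log ratios the called members went from 2 to 0 in Dnmt1 ExE, from 2 to 1 in G9a-Glp ExE, from 4 to 1 in Rnf2 ExE, from 1 to 0 in Rnf2 and in Eed epiblast, and for the interaction from 2 to 0 in G9a-Glp and from 4 to 2 in Rnf2. One fit over all BDF1xCAST groups gave 0 allelic calls in Dnmt1 ExE and 1 in G9a-Glp ExE, and sex as a term gave 1 allelic call in Dnmt1 ExE and 4 calls in level in Rnf2 ExE. The replicate block is not a pairing across genotypes, since same-numbered knockout and wild-type libraries come from different embryos. No such comparison had a correlation of deviations over 0.1 in all its same-numbered pairs. With this block the calls in level went from 0 to 1 in Dnmt1 epiblast, from 3 to 1 in G9a-Glp epiblast and from 2 to 1 in Rnf2 ExE, and the allelic call in Eed epiblast from 1 to 0. RLE scaling gave 1 of 3 maternal calls in G9a-Glp epiblast, and the G9a-Glp interaction had 0 calls at minimums of 20 or 50 reads and 1 with trended dispersion. Without the 7 libraries listed for their targeted gene, Dnmt1 ExE kept 1 of 2 calls in level. The same alternative, chosen after seeing the data for single alleles, Eed against Rnf2 and the interaction, gave 1 of 2 maternal calls in Dnmt1 ExE, 0 of 3 in G9a-Glp epiblast, 0 of 2 in level for Eed against Rnf2 and 1 of 2 for the G9a-Glp interaction. Leaving out 1 library at a time, members called ranged from 0 to 1 for parent of origin in epiblast, 3 to 4 between wild-type tissues in ratio and in level, 0 to 1 in level and paternal reads of Dnmt1 epiblast, 1 to 3 in ratio, 0 to 2 in level and 1 to 2 on either allele of Dnmt1 ExE, 0 to 3 in level and maternal and 2 to 3 in paternal reads of G9a-Glp epiblast, 1 to 2 in ratio and 2 to 4 in paternal reads of G9a-Glp ExE, 3 to 4 in level and paternal and 2 to 3 in maternal reads of Rnf2 epiblast, 1 to 4 in level and 0 to 1 in maternal reads of Rnf2 ExE, 2 to 4 in level, 3 to 4 in paternal and 2 to 3 in maternal reads of Eed epiblast, 2 to 3 in maternal reads of Eed ExE, and 0 to 1 (Dnmt1) and 0 to 2 (G9a-Glp) for the interaction. Over all genes, alternatives other than leaving out 1 library gave 13 to 110 allelic calls in Dnmt1 ExE (73 as reported), 36 to 201 in G9a-Glp (104), 15 to 153 in Rnf2 (108) and 155 to 322 in Eed (257), and in epiblast 25 to 77 (71), 54 to 280 (176), 26 to 170 (82) and 23 to 220 (111) in the same order. The cause was not tested. Low reads limit Ascl2 in epiblast and Tspan32 throughout.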

Other observations

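The labels give the sex of each embryo. In Eed ExE the maternal share was lower in the 4 females than in the 6 males for all 4 genes. Ascl2 stood at 59.4% ± 3.44 in females and 77.7% ± 11.2 in males (SD, two-sided exact permutation p = 0.0190), Cd81 at 63.4% and 81.2% (exact p = 0.00952), R74862 at 62.8% and 79.7% (exact p = 0.0190) and Tssc4 at 65.1% and 80.8% (exact p = 0.0190). After adjustment over the 16 comparisons made, each was 0.0762 and none of the 16 passed. The female mean was lower in all 16, thus also in Rnf2, G9a-Glp and wild-type BDF1xCAST ExE. In Rnf2 ExE the sexes did not overlap for any of the 4 genes (Cd81 67.0% in females and 84.0% in males). There the exact permutation p was 0.2 for each gene, the lowest that 2 against 3 embryos allow. Tssc4 in G9a-Glp ExE stood at 78.9% and 91.6% (exact permutation p = 0.0357, adjusted 0.114).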
